A study of Sus scrofa with 22 samples.

Results

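Expression of the genes of lysophosphatidic acid (LPA) signalling was described in porcine endometrium collected by laser capture microdissection (LCM), a method that cuts selected cells out of stained tissue sections. The genes were named as a family and not by their values, but earlier results of these data were known at the choice. They comprise the LPA receptors LPAR1 to LPAR6, the LPA producing enzyme autotaxin (ENPP2) and the lipid phosphate phosphatases PLPP1, PLPP2 and PLPP3. Of these 10 genes, 9 were listed in at least 1 of the deposited count tables, which together list 12401 genes. LPAR1, LPAR2, LPAR3, LPAR6, ENPP2, PLPP1, PLPP2 and PLPP3 were listed for all 3 cell types, whereas LPAR5 was listed for luminal epithelium and stroma only. LPAR4 was listed in none of the tables and is not analysed here.

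The compartments cut out were the luminal (LE) and the glandular epithelium (GE) and the stroma (S) of 8 crossbred gilts (German Landrace and Piétrain) on Day 12. Ovulation was synchronized in all gilts with PMSG and hCG. The 4 pregnant gilts had been inseminated with semen and carried filamentous conceptuses, and the 4 nonpregnant cyclic (control) gilts had received the supernatant of centrifuged semen from the same boar. Each gilt gave 1 library of LE and 1 of GE. For 6 gilts, 3 of each group, 1 library of S was also available, so that there were 22 libraries. The paper states that all 3 cell types were prepared from each gilt, but S of gilts 03 and 06 was not among the data. The gilts carry the numbers 01, 03, 05 and 14 in the pregnant and 02, 04, 06 and 13 in the control group, and S libraries were analysed for gilts 01, 05, 14, 02, 04 and 13. All cells were chosen by morphology after cresyl violet staining, and areas collected as stroma can hold several cell types.

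LPA is a small signalling lipid formed outside the cell, for a large part by autotaxin from lysophosphatidylcholine. It acts through G protein-coupled receptors of which LPAR1, LPAR2 and LPAR3 belong to the EDG family and LPAR4, LPAR5 and LPAR6 to a more distant, P2Y-like family. Lipid phosphate phosphatases of the cell surface end the signal by removing the phosphate. In the uterus, LPA signalling through LPAR3 is known for its role in embryo spacing and implantation and for its link to prostaglandin synthesis in rodents, and conceptus estrogen is the signal for recognition of pregnancy in the pig.

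Depth lay between 893912 counts (pregnant LE of gilt 01) and 4020796 counts per library, so that 3 counts, taken as the floor, correspond to 0.746 to 3.36 CPM (counts scaled to a common library size). Marker genes were summed per library to check the labels. The 10 epithelial markers summed to 2956 to 4648 CPM in LE, to 839 to 3446 CPM in GE and to 1334 to 4430 CPM in S, and 9 fibroblast markers summed to 5291 to 66850 CPM in S, whereas 10 summed to 9271 to 23550 CPM in LE. In control gilts, S (2789 to 3378 CPM) and LE (2956 to 3610 CPM) overlapped in the epithelial sum. The fibroblast sum was lower in S (5291 to 9199 CPM) than in LE (12640 to 18290 CPM), which goes against both labels. Results for S and for LE are therefore those of the libraries so labelled. The S library of gilt 01 stood apart with the highest fibroblast sum, and among GE libraries the control of gilt 02 stood apart with 47810 CPM of fibroblast and 839 CPM of epithelial markers. In LE, gilt 01 had 5504 CPM of smooth muscle markers against at most 1168 CPM in the other LE libraries.

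LPAR3 was the member with the largest response to pregnancy in LE, and the 250 bases in front of its annotated gene start are given here for that reason. LPAR3 (gene ID 100113360) lies on the plus strand of chromosome 6 in the NCBI assembly Sscrofa11.1 (RefSeq annotation), at chr6:128860210-128937769 with 3 merged exons. Capitals mark the GC boxes (GGGCGG, either strand) found among the motifs that were searched.
LPAR3 promoter, chr6:128859960-128860209: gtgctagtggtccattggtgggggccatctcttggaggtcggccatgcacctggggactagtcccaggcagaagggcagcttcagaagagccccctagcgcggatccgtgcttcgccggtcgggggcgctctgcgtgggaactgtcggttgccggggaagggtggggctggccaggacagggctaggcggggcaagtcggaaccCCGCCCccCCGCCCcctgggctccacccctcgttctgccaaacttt
The LPAR3 window has a GC content of 68.4%, and 72.1% of 12199 windows of the same length in front of listed genes have a lower one. On the reverse strand, 2 GC boxes start 46 and 38 bases before the LPAR3 start. GC boxes occur in 55.5% of all windows. The LPAR3 window does not hold the estrogen response element GGTCANNNTGACC (found in 0.0082% of all windows), its half-site GGTCA (31.5%, contained in the full element), the AP-1 site TGANTCA (4.15%), the TATA box TATAAA (7.37%) or the progesterone receptor half-site TGTTCT (8.98%), each searched on both strands.

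Whether the genes respond to pregnancy was asked for each cell type with the quasi-likelihood test of edgeR. The study's thresholds were used. In LE this was a false discovery rate (FDR, Benjamini-Hochberg over all listed genes) of less than 0.01. In GE and S it was a p value of less than 0.0021 without adjustment, and the FDR is printed beside each call. In LE, 2 of 9 members passed, LPAR3 upwards and PLPP3 downwards, against 10.0% of all listed genes. In GE, 1 of 8 members passed, LPAR3 upwards, against 0.694% of all genes. None of 9 members passed in S, where 1.47% of all genes did. At an unadjusted p value below 0.05 there were 6 of 9 members in LE (35.6% of all genes), 1 of 8 in GE (8.09%) and 2 of 9 in S (12.5%). Pregnant and control libraries did not overlap in CPM for 5 of 9 members in LE (26.7% of all genes), 1 of 8 in GE (4.92%) and 2 of 9 in S (17.6%). The median log2 fold change (FC, pregnant over control) of the members was 0.38 in LE, 0.11 in GE and 0.34 in S, beside 0.01, -0.02 and 0.08 over all genes. In whole captured areas, a change in the number of cells of a type and a change of RNA per cell cannot be told apart.

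**Figure D1:**
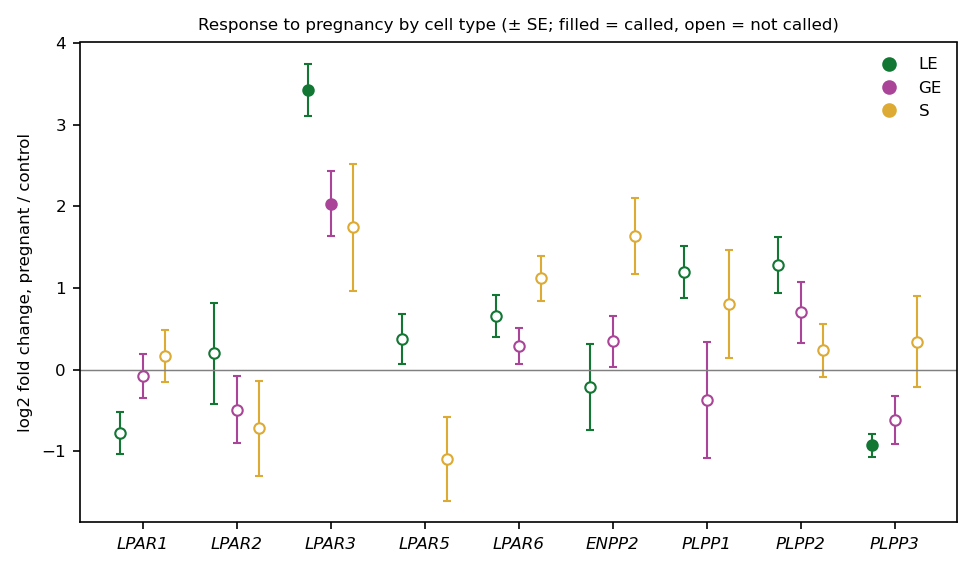
Log2 fold change of each member (pregnant over control, ± SE) in LE, GE and S; filled circles passed the threshold of the cell type and open circles did not. LPAR3 lies highest in LE and GE, at 3.42 and 2.03, and PLPP3 in LE is the filled circle below 0, at -0.93.

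LPAR3, a receptor that couples to Gq and Gi proteins, rose in LE, where it reached the highest level of any member in CPM per kb. The control LE libraries had 88.9, 42.8, 42.5 and 40.3 CPM in gilts 02, 04, 06 and 13, and the pregnant LE libraries had 464, 530, 802 and 496 CPM in gilts 01, 03, 05 and 14. Every pregnant library was thus far above every control library, and gilt 02 was the one high control. The mean rose from 53.6 ± 23.6 CPM to 573 ± 155 CPM (SD, n = 4 each), a log2 FC of 3.42 (SE 0.32, edgeR FDR 0.000113), or 10.7-fold. When any 1 gilt was left out, log2 FC stayed between 3.22 and 3.78 and the call held in 8 of 8 fits. Scaled by exon length, LPAR3 reached 193 CPM per kb in pregnant LE, with 297 of 11415 listed genes (2.6%) above it, compared with 18.0 CPM per kb and 28.9% of the genes above it in control LE.

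In GE, LPAR3 was lower and responded in the same direction. Control GE libraries had 14.8, 21.9, 37.5 and 19.5 CPM (gilts 02, 04, 06 and 13), while pregnant GE libraries had 125, 58.0, 139 and 63.6 CPM (gilts 01, 03, 05 and 14). The groups did not overlap, and gilts 01 and 05 were the high ones among the pregnant. The log2 FC was 2.03 (SE 0.40, edgeR FDR 0.201), which passed the unadjusted threshold but no FDR threshold. This call was lost without gilt 04, 13, 01 or 05, with log2 FC of 2.004, 1.95, 1.89 and 1.79 (FDR up to 0.64), and held without gilt 02 (1.87, FDR 0.235), the control with few epithelial markers. The sum of the epithelial markers also separated these groups, at 839 to 2446 CPM in control and 2570 to 3446 CPM in pregnant GE. Among them CDH1 did so (233 to 718 and 829 to 1651 CPM), and CDH1 was also higher in pregnant LE. In LE, however, KRT8 was lower in pregnant gilts (921 to 1133 CPM in control, 263 to 532 CPM in pregnant). KRT18 was lower there too (140.2 to 277.5 and 12.8 to 99.3 CPM), and EPCAM overlapped. EPCAM (103 to 396 and 334 to 597 CPM), KRT8 (203 to 659 and 262 to 486 CPM) and KRT18 (45.7 to 87.2 and 73.2 to 108 CPM) overlapped in GE. The glandular markers (4 of 6 listed) overlapped as well, at 851 to 3257 CPM and 1699 to 4767 CPM. The part of these markers in the LPAR3 values was not tested.

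In the libraries labelled S, LPAR3 had 100, 37.1 and 46.1 CPM in the control gilts 02, 04 and 13 and 68.0, 454 and 90.4 CPM in the pregnant gilts 01, 05 and 14. Gilt 05 was far above all others, and the remaining pregnant libraries lay within the range of the controls. The log2 FC of 1.75 (SE 0.78, edgeR FDR 0.421) did not pass, and without gilt 05 it was 0.38. The S library of gilt 05 also had the highest sums of epithelial (4430 CPM, 1334 to 3378 CPM in the other S libraries) and glandular markers (3377 CPM, 641 to 1632 CPM in the others). Of single markers, CDH1 (2153 CPM) and EPCAM (680 CPM) were highest in this library. KRT8 (378 CPM) and KRT18 (84.0 CPM) lay below all control S libraries, as they did in the other pregnant S libraries. Among pregnant S libraries, both were highest in gilt 05. Gilts 01 and 14 had 211 and 358 CPM of KRT8 and 62.3 and 79.0 CPM of KRT18. FOXA2 (47.9 CPM) was below its level in gilts 14 (133 CPM) and 04 (60.8 CPM). The part of these markers in the LPAR3 result was not tested. Gilt 05 had the highest LPAR3 level in each of the 3 cell types.

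**Figure D2:**
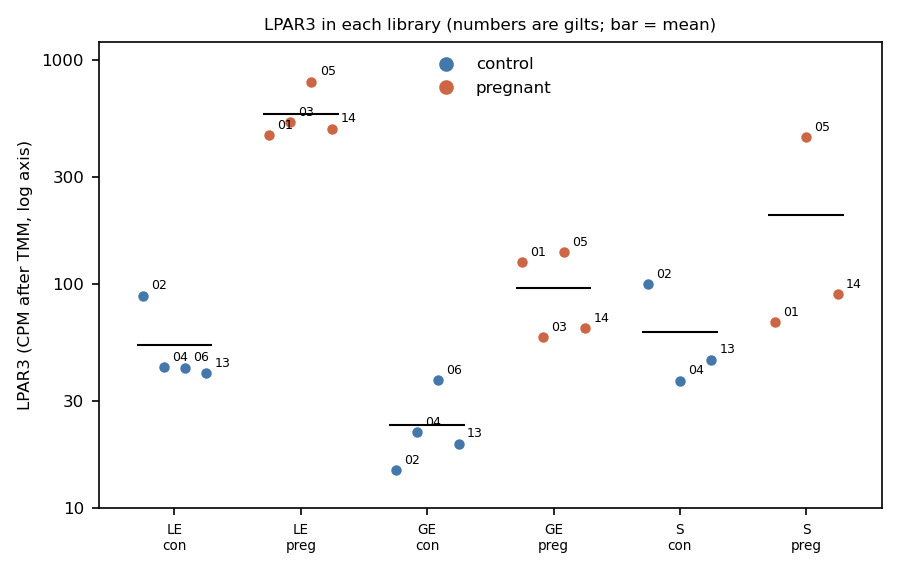
LPAR3 in each library on a logarithmic axis (CPM after TMM normalization), with the gilt number beside each point and the group mean as a bar. The pregnant LE libraries lie between 464 and 802 CPM, above every other library. The pregnant S library of gilt 05, at 454 CPM, lies just below them.

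The increase of LPAR3 was not shown to differ between cell types. In a joint fit of the 10643 genes listed for all 3 cell types, the log2 FC in GE differed from that in LE by -1.40 (SE 0.72, FDR 0.442), that in S differed from LE by -1.69 (SE 0.77, FDR 0.447) and that in S from GE by -0.29 (SE 0.77, FDR 0.987). Single gilts moved these values. Without gilt 05, the S minus LE value was -2.87 (FDR 0.0383) and the S minus GE value -1.44 (FDR 0.525), whereas S minus GE was 0.42 without gilt 02 and 0.27 without gilt 01. GE minus LE ran from -1.93 without gilt 02 to -0.95 without gilt 06 (lowest FDR 0.33). No member passed an FDR of 0.01 in any of these 3 tests by edgeR, and 0.0% of all genes did in GE minus LE, 0.0% in S minus LE and 0.0% in S minus GE. At an unadjusted p value below 0.05 these were 0, 4 and 1 of 8 members, beside 12.5%, 10.8% and 6.05% of all genes. The likelihood ratio test of edgeR and the Wald test of DESeq2 also called 0 members. In the order GE minus LE, S minus LE and S minus GE, the first called 0.742%, 0.16% and 0.0% of all genes. The second called 1.04%, 0.197% and 0.0%. Cell types share gilts, and with the gilt as a fixed or random block no member passed either. LPAR3 was then at -2.23 (FDR 0.153) or -2.195 (FDR 0.126) in S minus LE. It was at -1.51 (FDR 0.192 or 0.21) in GE minus LE and at -0.72 or -0.68 in S minus GE. The fixed block called 0.395%, 0.0188% and 0.0% of all genes in the same order, and the random block 0.385%, 0.0% and 0.0%. Without a block, the 4 members below 0.05 in S minus LE were LPAR3, PLPP3 (1.21, SE 0.51), LPAR1 (0.90, SE 0.43) and ENPP2 (1.81, SE 0.70). Without gilt 01, PLPP3 was at 0.34 and ENPP2 at 1.26, and without gilt 14 ENPP2 was at 2.86 (FDR 0.126).

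CPM are scaled within each table, so that levels of different cell types are only set side by side and were tested in the joint fit. By its mean CPM, LPAR3 was ordered LE (573), S (204 ± 217) and GE (96.5 ± 41.7) in pregnant gilts, and S (61.2 ± 34.2), LE (53.6) and GE (23.4 ± 9.82) in control gilts. The place of S rested on single libraries. Without gilt 05 the pregnant means were 79.2 CPM in S and 82.3 CPM in GE, and without gilt 02 the control means were 41.6 CPM in S and 41.8 CPM in LE. In pregnant gilts, LPAR3 was lower in GE than in LE, with a log2 difference of -2.58 (SE 0.53, edgeR FDR 0.0026, 6.0-fold), the only one of 8 members called, against 9.56% of all genes. Without gilt 03 the difference was -2.39 and the call was lost (FDR 0.0244). Between S and LE of pregnant gilts, the difference in LPAR3 of -1.52 (SE 0.56, FDR 0.091) did not pass, and none of 8 members did, against 0.893% of all genes, with 4 of 8 at an unadjusted p value below 0.05 (26.6% of all genes). Without gilt 05 it was -2.70 (FDR 0.00602) and passed. In control gilts, the difference of GE from LE was -1.18 (SE 0.52, FDR 0.196) and that of S from LE 0.17 (SE 0.55, FDR 1.0), which did not separate LE from either neighbour. The difference of S from GE was 1.35 (SE 0.55, FDR 0.348) in control gilts, more than its SE but not past the FDR threshold, and 0.65 without gilt 02. In pregnant gilts it was 1.06 (SE 0.54, FDR 1.0), and -0.09 without gilt 05.

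Same-numbered libraries share a gilt, and with the gilt as a block more members passed in pregnant gilts. Between GE and LE, the fixed block called LPAR3 (-2.63) and LPAR1 (0.92, SE 0.20, FDR 0.00395), where 15.8% of all genes passed. The random block called LPAR3, LPAR1 and ENPP2 (1.75, SE 0.45, FDR 0.00669), where 16.8% of all genes passed. For S against LE, the fixed block called LPAR1 (1.21, SE 0.22, FDR 0.00537) among 3.14% of all genes, and the random block called LPAR1 (1.23) and LPAR3 (-2.04, SE 0.44, FDR 0.0057) among 4.93%. No member passed in the remaining comparisons of cell types with or without a block. Without it, 0.15% of all genes passed in GE against LE of control gilts, and 0.0% in S against LE of control gilts, 0.0% in S against GE of control gilts and 0.0% in S against GE of pregnant gilts. With the fixed and the random block, 1.84% and 4.83% passed in GE against LE of control gilts, and 0.0% in the others. At an unadjusted p value below 0.05 without a block, these 4 comparisons had 3, 1, 2 and 0 of 8 members, beside 21.2%, 3.77%, 11.4% and 2.54% of all genes.

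LPAR1, a receptor found in many tissues, had lower levels in pregnant than in control LE without passing the threshold. Control LE libraries had 59.4, 66.5, 81.1 and 76.6 CPM (gilts 02, 04, 06 and 13), and pregnant LE libraries had 44.4, 46.7, 22.7 and 53.4 CPM (gilts 01, 03, 05 and 14). No pregnant library reached the level of a control, and gilt 05, highest for LPAR3, was lowest for LPAR1. The log2 FC was -0.77 (SE 0.26, edgeR FDR 0.054). In GE and S the groups overlapped, with log2 FC of -0.07 (SE 0.27) and 0.17 (SE 0.32). Among pregnant libraries, LPAR1 ranged from 54.8 to 104 CPM in GE and from 63.3 to 135 CPM in S, all above the 4 LE libraries.

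LPAR6, a receptor that couples to G12/13 proteins, had higher levels in the pregnant S libraries. Control S libraries had 25.6, 33.6 and 24.9 CPM (gilts 02, 04 and 13) and pregnant S libraries 50.2, 76.7 and 55.8 CPM (gilts 01, 05 and 14). All pregnant libraries lay above all controls, and the log2 FC of 1.12 (SE 0.28, edgeR FDR 0.184) missed the threshold. It was between 0.91 and 1.27 when any 1 gilt was left out. Lymphatic markers (7.01 to 15.8 CPM in control, 32.8 to 329 CPM in pregnant S) and leukocyte markers (85.3 to 89.1 CPM and 102 to 251 CPM) separated the same libraries. The lymphatic genes PROX1, LYVE1, MMRN1 and RELN were listed for S only, and each control S library had 1 or 2 of 5 lymphatic markers at 0. They may have passed the CPM filter through the pregnant libraries alone, which would fix their separation in advance. The part of these markers in the LPAR6 values was not tested. In LE the values overlapped, at 30.3 to 50.2 CPM in control and 46.7 to 89.5 CPM in pregnant gilts (log2 FC 0.66, SE 0.26, FDR 0.095), and in GE the log2 FC was 0.29 (SE 0.22).

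LPAR2, another EDG family receptor, and LPAR5, of the P2Y-like family, had the lowest levels among the listed receptors in CPM per kb. LPAR2 ranged from 0 counts in pregnant LE of gilt 01, which allows up to 3.36 CPM, to 20.3 CPM in pregnant LE of gilt 14, and its groups overlapped in each cell type. LPAR5 ranged from 10.4 to 29.3 CPM in LE, with a log2 FC of 0.38 (SE 0.31). In S, LPAR5 had 25.6, 12.9 and 11.4 CPM in control and 4.86, 11.7 and 6.13 CPM in pregnant gilts, with a log2 FC of -1.09 (SE 0.51, edgeR FDR 0.443). These values overlap, and the lowest one rests on 6 counts.

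Scaled by exon length, the receptors can be set beside each other within a library. The 4 receptors listed for all cell types summed to 45.1 ± 3.97 CPM per kb in control LE and to 219 ± 54.7 CPM per kb in pregnant LE (SD, n = 4 each). LPAR3 made up 31.3% to 59.8% of this sum in control LE and 84.8% to 90.3% in pregnant LE. LPAR1 made up 24.1% to 38.5% in control and 1.54% to 5.50% in pregnant LE. In GE, the share of LPAR3 was 15.8% to 32.1% in control and 36.4% to 65.7% in pregnant gilts, and LPAR1 was the largest part in each control GE library. In S, the LPAR3 share was 26.3% to 58.5% in control gilts and 41.0%, 42.0% and 82.4% in the pregnant gilts 14, 01 and 05, of which the last lies just below the range of pregnant LE. Since the shares of a library depend on 1 common sum, a larger share of LPAR3 lowers the others.

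**Figure D3:**
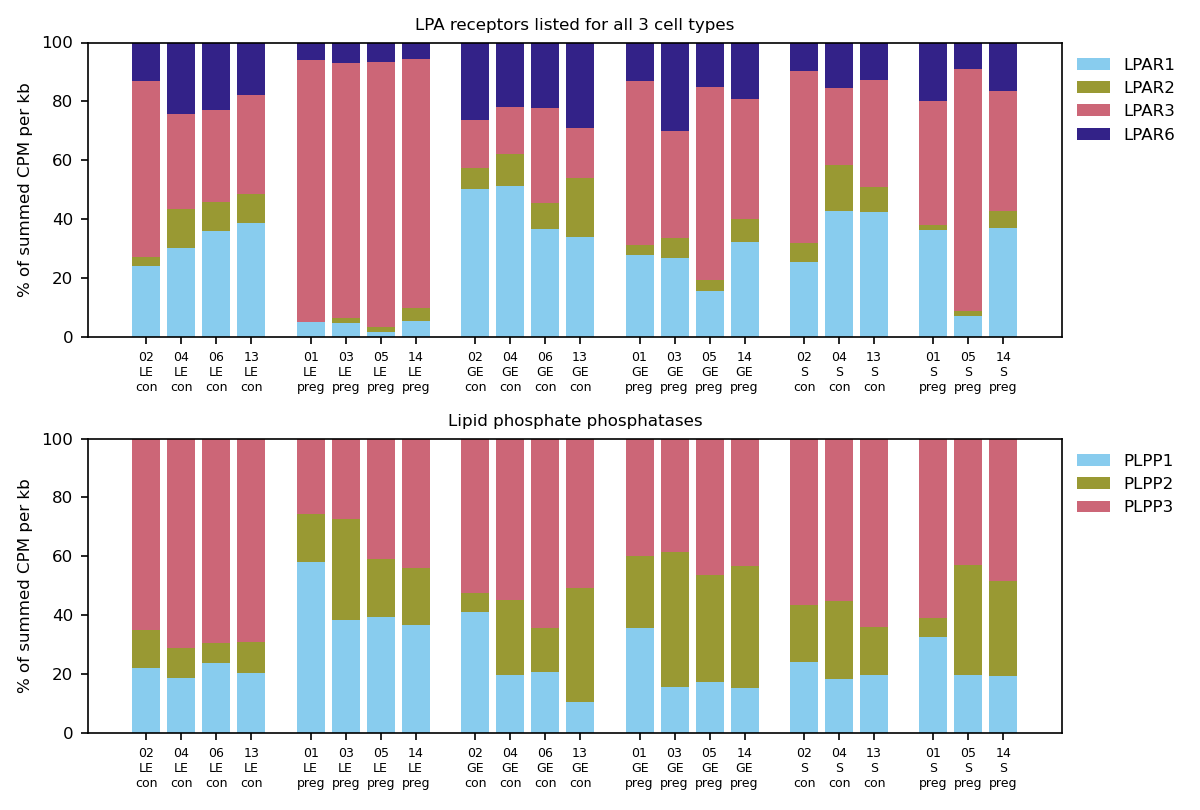
Share of each gene in the summed CPM per kb of the LPA receptors listed for all 3 cell types (top) and of the lipid phosphate phosphatases (bottom), 1 bar per library, labelled by gilt, cell type and state. LPAR3 takes 84.8% to 90.3% of the receptor sum in pregnant LE, and PLPP3 takes 65.1% to 71.3% of the phosphatase sum in control LE and 25.6% to 43.9% in pregnant LE.

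ENPP2, the secreted enzyme autotaxin, was low in LE and was not called in any cell type. Its LE levels were 9.23, 17.9, 15.0 and 10.4 CPM in control and 7.01, 3.12, 8.16 and 24.7 CPM in pregnant gilts (01, 03, 05 and 14), with overlapping groups and a log2 FC of -0.21 (SE 0.52). In GE it ranged from 13.6 to 36.7 CPM in control and from 27.9 to 41.7 CPM in pregnant gilts (log2 FC 0.35, SE 0.31). Control S libraries had 10.2, 19.3 and 15.4 CPM, and pregnant S libraries had 76.9, 26.1 and 39.5 CPM in gilts 01, 05 and 14. Here the groups did not overlap, and gilt 01 was highest. The log2 FC in S was 1.64 (SE 0.47, edgeR FDR 0.232), short of the threshold, and 1.09 (FDR 0.322) without gilt 01.

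The lymphatic markers given for LPAR6, 5 of 6 listed for S, had the limit given there and their highest sum in gilt 01. MMRN1 was at 0 in all control S libraries. Within groups their order differed from that of ENPP2. From gilt 02 to 13 to 04, control S rose in ENPP2 and fell in the lymphatic sum (15.8, 11.0 and 7.01 CPM). Pregnant gilt 05 had a higher lymphatic sum than gilt 14 (113 and 32.8 CPM) and less ENPP2. The fibroblast sum had the ENPP2 order in pregnant S (66850, 12300 and 8876 CPM in gilts 01, 14 and 05) but not in control S. Leukocyte markers (5 of 10 listed) separated pregnant from control S as well, and blood endothelial markers summed to 272 to 491 CPM in control and 297 to 2090 CPM in pregnant S. The part of these markers in the ENPP2 values was not tested. In pregnant gilts, ENPP2 was higher in S than in LE by 1.997 on the log2 scale (SE 0.50, FDR 0.0208) and higher in GE than in LE by 1.54 (SE 0.47, FDR 0.0243), both short of the FDR of 0.01 without a block. Without gilt 14, the LE library with the highest level, these differences were 3.04 (FDR 0.00495) and 2.52 (FDR 0.00302) and passed.

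**Figure D4:**
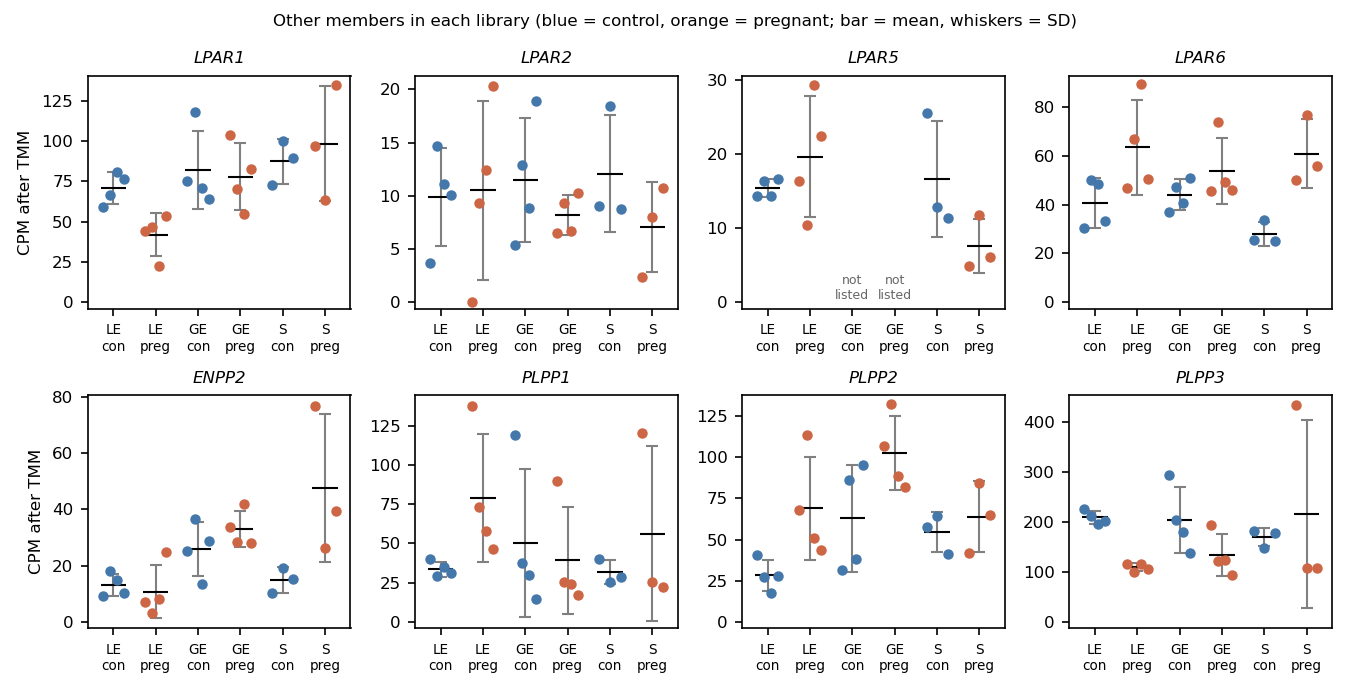
CPM after TMM normalization of the other members in each library by cell type and state, with the group mean as a bar and the SD as whiskers. PLPP3 in LE falls into 2 separate groups, 196 to 226 CPM in control and 101 to 117 CPM in pregnant gilts, whereas LPAR5 is not listed for GE.

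PLPP3, a phosphatase that hydrolyses LPA and is essential for blood vessel formation, fell in LE. Control LE libraries had 226, 213, 196 and 203 CPM (gilts 02, 04, 06 and 13), and pregnant LE libraries had 117, 101, 117 and 107 CPM (gilts 01, 03, 05 and 14). Both groups were narrow and far apart. The log2 FC was -0.93 (SE 0.14, edgeR FDR 0.00139), a level 1.9-fold lower, and the call held in 8 of 8 fits that left out 1 gilt, with -0.96 to -0.89. With the shared spread of the joint fit it was not called (-0.92, SE 0.34, FDR 0.0663), nor with the 6 gilts that have an S library (-0.92, FDR 0.0133).

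In GE and S, PLPP3 was not called and single libraries set the range. Control GE libraries had 295, 204, 179 and 138 CPM (gilts 02, 04, 06 and 13) and pregnant GE libraries 194, 121, 125 and 94.7 CPM (gilts 01, 03, 05 and 14), which overlap (log2 FC -0.61, SE 0.29, edgeR FDR 0.652). Control S libraries had 183, 148 and 178 CPM, and pregnant S libraries had 435, 108 and 108 CPM in gilts 01, 05 and 14. Gilt 01 was above and the other pregnant libraries were below all controls. The log2 FC in S was 0.34 (SE 0.56) with gilt 01 and -0.68 (SE 0.23, FDR 0.307) without it.

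PLPP1, the most widely found of the phosphatases, and PLPP2 were higher in pregnant LE without passing an FDR of 0.01. PLPP1 had 39.9, 29.1, 34.8 and 30.8 CPM in control and 138, 73.2, 58.1 and 46.2 CPM in pregnant LE libraries (gilts 01, 03, 05 and 14), a log2 FC of 1.20 (SE 0.32, edgeR FDR 0.0219). PLPP2 had 40.6, 27.0, 17.8 and 27.6 CPM in control and 67.7, 114, 51.1 and 43.4 CPM in pregnant LE, a log2 FC of 1.28 (SE 0.34, FDR 0.0224). For both genes all pregnant libraries were above all controls, with gilt 01 highest for PLPP1 and gilt 03 highest for PLPP2. Without gilt 14, both passed (FDR 0.00618 and 0.0091). PLPP1 values are uncertain, since 46.4% of the 50-base windows of its exons are shared with other genes, mainly through 884 exon bases that overlap SKIV2L2 on the opposite strand and SLC38A9, and the use of strand in counting is not given in the sources used here.

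PLPP1 was high in those libraries of GE and S with the highest fibroblast, blood endothelial and smooth muscle sums. PLPP3 was highest in the same GE library (gilt 02) and S library (gilt 01) as PLPP1. In GE, PLPP1 had 119 CPM in gilt 02 and 89.8 CPM in gilt 01, against 14.6 to 37.7 CPM in the others, and the fibroblast sum was 47810 and 31790 CPM in these 2 libraries against 4341 to 16740 CPM. In S, PLPP1 had 121 CPM in gilt 01 against 22.4 to 40.2 CPM, with a fibroblast sum of 66850 CPM against 5291 to 12300 CPM. In LE, the pregnant library of gilt 01 had both the highest PLPP1 level and the highest fibroblast sum (23550 CPM, against 9271 to 18290 CPM), and without this gilt the log2 FC of PLPP1 in LE was 0.81 (FDR 0.0204). Outside gilt 01, the fibroblast sum and PLPP1 did not run together in LE. Gilt 04 had 18290 CPM of fibroblast markers with 29.1 CPM of PLPP1, and gilt 03 had 9271 CPM with 73.2 CPM. Blood endothelial markers summed to 1353 and 1102 CPM in GE of gilts 02 and 01, and to 2090 CPM in S and 1601 CPM in LE of gilt 01. Smooth muscle markers were also highest in these libraries. The part of all these markers in the levels was not tested. PLPP1 was not called in GE (log2 FC -0.37, SE 0.71) or S (0.81, SE 0.66), and without gilt 02 in GE and gilt 01 in S the values were 0.51 and -0.42. PLPP2 overlapped between groups in GE (31.7 to 95.6 CPM in control, 82.0 to 132 CPM in pregnant) and in S.

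As a set, the phosphatases differed between states of LE in their proportions, while their sums overlapped. In CPM per kb, the 3 genes summed to 87.1 ± 8.24 in control LE and to 96.3 ± 26.8 in pregnant LE (SD, n = 4 each), at 80.6 to 99.1 and 69.5 to 130. PLPP3 made up 65.1% to 71.3% of this sum in control LE and 25.6% to 43.9% in pregnant LE. The share of PLPP1 was 18.8% to 23.7% in control and 36.5% to 58.1% in pregnant LE, and that of PLPP2 was 6.91% to 12.9% and 16.4% to 34.1%. In GE, the share of PLPP3 was 50.9% to 64.4% in control and 38.4% to 46.5% in pregnant gilts. In S it overlapped, at 55.2% to 64.0% and 43.1% to 61.0%.

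Over the 22 libraries, the genes with the pattern most like that of LPAR3 in log2 CPM were NT5DC3 (Pearson r = 0.97), TMEM171 (0.96) and GLB1, the lysosomal beta-galactosidase (0.96). For PLPP3 they were DBN1, an actin-binding protein (r = 0.88), GTF2A1L (0.87) and RAB11FIP3 (0.85), each out of 10643 genes. These values include the differences between states and cell types and are a description. Between members, r was -0.66 for LPAR3 and LPAR1, -0.57 for LPAR3 and PLPP3, and 0.57 for LPAR1 and ENPP2 in the same libraries.

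Other genes of the pathway were taken from lists of LPA production and breakdown, related receptors, sphingosine 1-phosphate (S1P) turnover, G proteins and effectors, SRF and YAP genes and the ENPP family, with 76 of 77 symbols matched in the annotation. In LE, 6 of 55 listed genes passed, 3 upwards and 3 downwards, a share near the 10.0% of all genes. Their median log2 FC was 0.32. In GE, none of 52 passed by edgeR, against 0.694% of all genes, and 4 had an unadjusted p value below 0.05, against 8.09%. The likelihood ratio, exact and DESeq2 tests each called 1 gene in GE, ENPP1, and the median log2 FC was 0.05. In S, 2 of 51 passed, both downwards, against 1.47% of all genes, of which 49 passed upwards and 121 downwards, and the median was 0.19.

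The genes that rose in LE were relatives of autotaxin and an acyltransferase. ENPP5, a membrane protein of the ENPP family, had 33.2, 30.5, 43.5 and 34.8 CPM in control and 170, 460, 417 and 273 CPM in pregnant LE, a log2 FC of 3.22 (SE 0.31, edgeR FDR 0.000128). ENPP4, a surface enzyme that cleaves dinucleotides, rose from 41.6 ± 11.2 to 237 ± 126 CPM (SD, n = 4 each), a log2 FC of 2.51 (SE 0.35, FDR 0.000995). The groups did not overlap for either gene, and both were called in 8 of 8 fits that left out 1 gilt. AGPAT3, which acylates LPA to phosphatidic acid, rose from 154 ± 14.5 to 293 ± 77.1 CPM (log2 FC 0.93, SE 0.20, FDR 0.00856), and was called in only 1 of 8 such fits, the one without gilt 01. None of the 7 listed genes of LPA production passed, and neither did the 3 related receptors. Beside 10.0% of all genes, 0 is near that share in lists this short.

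The genes that fell in LE were CCN2, PLCB4 and GNAQ. The last 2 were the called ones of 16 listed G protein and effector genes, near the 10.0% of all genes called in LE. CCN2 (CTGF), a secreted matrix protein, had 1775, 1060, 1220 and 1648 CPM in control and 222, 165, 80.4 and 462 CPM in pregnant LE, a log2 FC of -2.62 (SE 0.46, edgeR FDR 0.00321). Of 11 listed SRF and YAP genes it was the 1 that passed, which is again near the share of all genes. It was called in 5 of 8 fits that left out 1 gilt (FDR 0.0109, 0.0104 and 0.0111 without gilts 02, 13 and 03). PLCB4, a phospholipase C that acts downstream of Gq, fell from 47.7 ± 11.0 to 10.9 ± 5.13 CPM (log2 FC -2.20, SE 0.32, FDR 0.00116, 8 of 8 fits). GNAQ, the alpha subunit of Gq, fell from 144 ± 39.6 to 62.6 ± 13.4 CPM (log2 FC -1.19, SE 0.23, FDR 0.00552) and held in 2 of 8 fits, those without gilt 13 or 14, with FDR up to 0.0203 in the others. For all 3 genes the pregnant libraries lay below the controls.

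In the libraries labelled S, PLCB1, a phospholipase C of the same pathway, had 306, 208 and 290 CPM in control and 93.1, 104 and 127 CPM in pregnant gilts (log2 FC -1.31, SE 0.26, edgeR FDR 0.124). SGPP2, a phosphatase of S1P, had 86.6, 31.6 and 94.4 CPM in control and 5.66, 6.03 and 11.9 CPM in pregnant gilts (log2 FC -3.12, SE 0.53, edgeR FDR 0.0991). The groups did not overlap for either gene, and leaving out 1 gilt kept the call of PLCB1 in 1 of 6 fits (without gilt 04) and that of SGPP2 in 2 of 6 (without gilt 04 or 14). In LE, PLCB1 and SGPP2 had log2 FC of -0.62 (SE 0.22) and -1.18 (SE 0.54) and were not called.

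**Figure D5:**
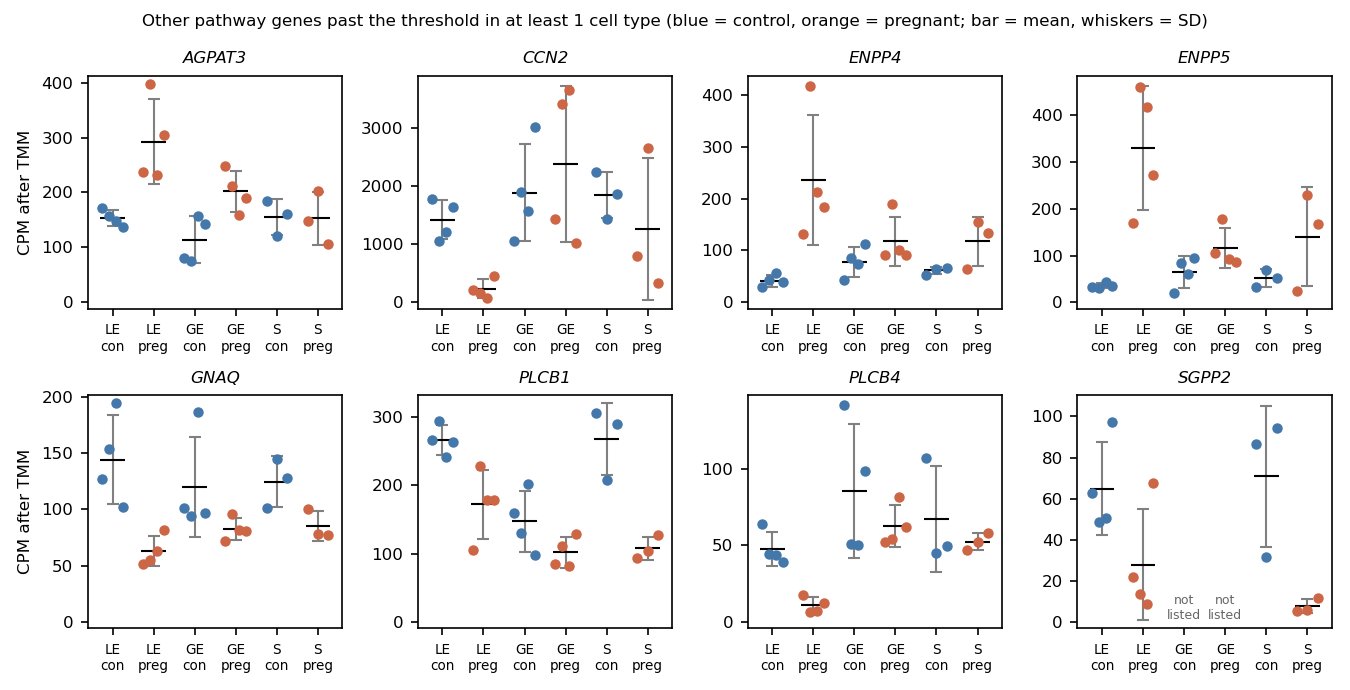
CPM after TMM normalization in each library of the pathway genes outside the family that passed the threshold in at least 1 cell type, with the group mean as a bar and the SD as whiskers. ENPP4 and ENPP5 rise and CCN2, GNAQ and PLCB4 fall in pregnant LE, and SGPP2, not listed for GE, reaches at most 11.9 CPM in pregnant S.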

How the data were processed

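RNA-seq libraries (Ovation SoLo) of 22 LCM samples were analysed. According to the paper, the authors clipped adapters and 5′ bases, aligned with Hisat2 (assembly Sscrofa 11.1), discarded PCR duplicates using random adapter bases, filtered genes by CPM and deposited read counts per NCBI gene, without normalization. Counting tool, strand and CPM cutoff are not given in the sources used here. Genes absent from a table were not analysed there. Each cell type was fitted with edgeR 4.0.16 (R 4.3.3; TMM, quasi-likelihood F test, two-sided, all listed genes), and cell types and interactions in a joint fit of 10643 genes (FDR below 0.01). CPM are TMM-scaled within a table. CPM per kb used the merged exons of the RefSeq annotation. Floors (3 counts) cover counting error only, whereas the SE of a log2 FC comes from the fit and includes the spread between libraries.

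Same-numbered libraries come from the same gilt by the sample labels. Their deviations from group means correlated with a median r of 0.257 (LE and GE), 0.314 (LE and S) and 0.467 (GE and S), and the gilt was a block in alternatives (fixed in edgeR, random in limma 3.58.1). Gilts differ between states, so that no block was possible within a cell type. The members and lists were chosen with earlier results of these data known. Named were all members, pathway genes past the threshold (at most 10 per cell type), and the 3 genes with the highest Pearson r (log2 CPM, prior count 2) to LPAR3 and to each called member. Alternatives were other thresholds, normalizations, filters and tests (DESeq2 1.42.0 among them), a gilt left out, and the 6 gilts with S libraries. The procedure was tested on simulated counts. Promoter sequences of other members are not reported here.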

Additional observations from a re-analysis of the deposited data

Results flagged for a closer look

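Among 34 groups of 4 libraries of the members, the highest library was far from the nearest other in 3, where chance alone gives about 1 in 20. LPAR3 had 88.9 CPM in control LE of gilt 02, with the other control LE libraries at 40.3 to 42.8 CPM. LPAR6 had 74.0 CPM in pregnant GE of gilt 03, and 45.4 to 49.3 CPM in the other pregnant GE libraries. PLPP1 had 89.8 CPM in pregnant GE of gilt 01 and 17.3 to 25.4 CPM in the others of this group. Without gilt 02 the log2 FC of LPAR3 in LE was 3.78, above the reported value, and without gilt 01 that of PLPP1 in GE was -1.17 (edgeR FDR 0.759).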

How the results depend on the processing

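The log2 FC of the members kept their sign in 1558 of 1595 values under other settings, and no called value reversed. LPAR3 was called in LE under every setting run. In LE, 4 members (LPAR3, PLPP3, PLPP1 and PLPP2) passed at an FDR below 0.05 and with the likelihood ratio, exact and DESeq2 tests, where 22.4%, 18.2%, 18.0% and 19.1% of all genes passed, and 1 (LPAR3) with the joint fit (8.57%) or with only the 6 gilts that have an S library (3.81%). Leaving out 1 gilt gave 2 to 4 (5.15% to 14.4% of all genes). In GE, 0 members passed at an FDR below 0.05 or 0.01, where 0.0171% and 0.00856% of all genes did. Leaving out 1 gilt gave 0 to 1 in GE (0.36% to 0.856%). In S, 1 member (ENPP2) passed with the likelihood ratio and exact tests (4.01% and 3.82% of all genes), 2 (LPAR6 and ENPP2) with DESeq2 (4.44%) and 1 (LPAR6) with the joint fit (2.77%). Of the other 55 pathway genes, against the same shares of all genes, 12 passed in LE at an FDR below 0.05 and with DESeq2, 10 with the likelihood ratio and exact tests and 2 (ENPP4 and ENPP5) with 6 gilts, while leaving out 1 gilt gave 3 to 6. In GE, 1 of 52 passed with the likelihood ratio, exact and DESeq2 tests (1.58%, 1.51% and 2.06% of all genes). In S, 0 passed at an FDR below 0.05 or 0.01 (0.251% and 0.0% of all genes) and 1 with at least 10 counts in every library (1.23%). When 1 gilt was left out, 0 to 2 passed in S (0.564% to 1.92%).

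With a replicate block of the gilt, 2 (fixed) or 3 (random) members passed between GE and LE of pregnant gilts and 1 or 2 between S and LE, and no other call of a member changed. In GE against LE of pregnant gilts, 3 passed at an FDR below 0.05 (21.3% of all genes), 2 with the likelihood ratio (14.4%) or DESeq2 test (16.3%), and 0 to 2 when 1 gilt was left out (1.42% to 8.59%). In S against LE of pregnant gilts, 2 passed at an FDR below 0.05 (8.76%) and with the likelihood ratio (5.33%) or DESeq2 test (6.74%), and 0 to 1 when 1 gilt was left out (0.132% to 2.22%). For these changes the cause was not tested, other than fewer samples. Library size alone shifted the median log2 FC of all LE genes to -0.14, and that of LPAR3 and PLPP3 to 3.28 and -1.07. Depth limits LPAR2, LPAR5 and ENPP2, with single libraries at 0 to 6 counts.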

Other observations

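Of the SRF and YAP genes, CCN1 (CYR61) and CCN2, related matrix proteins, had log2 FC of opposite sign in LE, with 2.11 for CCN1 (edgeR FDR 0.0493, not called) and -2.62 for CCN2 (FDR 0.00321). Pregnant LE libraries had 14.4 to 136.6 CPM of CCN1 and control LE libraries 6.61 to 15.5 CPM. Among enzymes of LPA production, AGK, an acylglycerol kinase, and GPAT4 had log2 FC of 1.17 and 1.01 in LE, and neither passed an FDR of 0.01 (FDR 0.0259 and 0.0148). S1PR1, the S1P receptor of endothelium and lymphocytes, had log2 FC of 0.49 in LE, 0.29 in GE and 1.52 in S, and was called in none of them. These genes of the pathway lists were chosen for mention after their values were seen.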
